A study of Mus musculus with 12 samples.

Results

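Genes for enzymes that build, extend and cap mucin-type O-glycans and their sialylated, fucosylated and sulfated ends were followed in mouse colon. Members were the rows of the deposited gene table whose Ensembl identifiers map to symbols of the polypeptide GalNAc-transferases (Galnt), core 1 synthase and its chaperone (C1galt1, C1galt1c1), the Gcnt, B3gnt and B4galnt families, the fucosyltransferases (Fut), the sialyltransferases (St3gal, St6gal, St6galnac, St8sia) and the carbohydrate sulfotransferases (Chst). This gave 80 of 54532 rows with 79 symbols. Of these, 79 rows were protein-coding and 1, St8sia3os, was an antisense transcript. St6galnac2 was listed under 2 identifiers (ENSMUSG00000057286 and ENSMUSG00000110170).

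The study profiled colon mRNA of wild-type C57BL/6J mice in 4 groups of 3 samples. Mice received a diet labelled only CD or a diet labelled HFD (high-fat diet), each without or with 2% dextran sulfate sodium (CD+DSS and HFD+DSS). DSS is a sulfated polysaccharide that injures the colonic epithelium of rodents and provokes colitis. The labels used here give neither the full name of CD nor the animals' age, sex or time on treatment, and they do not say whether a group's 3 samples are 3 different animals, so p-values measure the spread between these samples.

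Mucin-type O-glycosylation starts in the Golgi, where a GALNT enzyme attaches N-acetylgalactosamine (GalNAc) to a serine or threonine of a mucin. Core 1 is made by adding galactose, core 2 by branching core 1 with N-acetylglucosamine (GlcNAc), and core 3 by adding GlcNAc directly to the GalNAc. Chains are then extended and capped with sialic acid, fucose, GalNAc or sulfate, and in the colon these glycans make up most of the mass of the mucin glycoproteins in the mucus that separates the epithelium from bacteria.

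Promoters of 3 members are shown because the results below turn on them: St3gal6, which fell with DSS under CD, B3gnt7, which spanned the widest range among the 43 members at FPKM 1 or more in every library, and B3gnt3, whose DSS libraries all lay above the others. Sequences are RefSeq's on GRCm38.p6, run from 250 bases before to 50 after an annotated start site, and are written 5′ to 3′ on the gene's strand. Capitals mark motif matches on either strand. St3gal6 has 2 entries, at chr16:58524204-58524503 and chr16:58523377-58523676, both on the minus strand. B3gnt7 lies at chr1:86302971-86303270 on the plus strand and B3gnt3 at chr8:71701751-71702050 on the minus strand.
St3gal6 start site 1: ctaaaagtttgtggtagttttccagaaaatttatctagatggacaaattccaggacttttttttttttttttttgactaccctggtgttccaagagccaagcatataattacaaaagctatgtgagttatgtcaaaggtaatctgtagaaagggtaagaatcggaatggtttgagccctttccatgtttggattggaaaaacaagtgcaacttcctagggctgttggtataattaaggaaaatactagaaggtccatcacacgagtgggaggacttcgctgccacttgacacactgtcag
St3gal6 start site 2: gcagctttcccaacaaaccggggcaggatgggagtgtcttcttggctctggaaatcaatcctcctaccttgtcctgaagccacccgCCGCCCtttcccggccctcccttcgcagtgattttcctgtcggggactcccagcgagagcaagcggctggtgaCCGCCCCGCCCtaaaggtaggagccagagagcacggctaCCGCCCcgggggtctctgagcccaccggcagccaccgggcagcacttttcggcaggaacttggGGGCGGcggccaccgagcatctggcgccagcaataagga
B3gnt7: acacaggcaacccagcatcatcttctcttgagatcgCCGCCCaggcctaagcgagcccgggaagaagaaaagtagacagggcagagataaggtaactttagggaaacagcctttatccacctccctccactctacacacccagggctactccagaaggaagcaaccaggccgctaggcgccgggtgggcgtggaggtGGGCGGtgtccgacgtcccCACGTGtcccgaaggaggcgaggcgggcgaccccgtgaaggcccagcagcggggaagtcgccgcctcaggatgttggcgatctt
B3gnt3: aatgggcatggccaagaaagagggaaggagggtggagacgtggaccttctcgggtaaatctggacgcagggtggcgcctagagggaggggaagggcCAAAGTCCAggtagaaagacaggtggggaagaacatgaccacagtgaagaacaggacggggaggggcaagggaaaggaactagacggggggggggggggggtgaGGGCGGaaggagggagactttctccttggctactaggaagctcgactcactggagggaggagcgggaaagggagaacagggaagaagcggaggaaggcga

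The 2 St3gal6 windows differed in base composition, with a GC content of 38.7% at the first and 64.7% at the second, against a median of 52.7% over all promoters of the table. The first held none of the 5 motifs searched, and the second held 5 matches to the GC box GGGCGG. B3gnt7 held 1 E-box CACGTG at position -34 from the start site and 2 GC boxes. B3gnt3 held 1 HNF4-type motif CAAAGTCCA at position -154 and 1 GC box. The E-box was present in 7.15% of all 32851 promoters, the HNF4-type motif in 0.475% and the GC box in 35.7%. Promoters were listed for 57 of the 79 symbols; Fut2 was not among them. Over the 50 promoters of members that entered the tests, 29 (58%) held the GC box and 2 each held the E-box and the STAT-type motif TTCNNNGAA, which was present in 8.3% of all promoters. The CDX-type motif TTTATGG (2.75% of all promoters) had 0 matches in those 50 promoters. They belonged to 36 of the 50 symbols tested, some of which had several. The shares over all 32851 promoters were taken without a filter on level, so the sets compared are unlike. A match describes the letters in these windows and is not evidence of a bound site.

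Of the 80 rows, 56 reached FPKM 1 in at least 1 library, 43 did so in all 12, 24 never did, and 2 (B3gnt4 and St8sia3os) were listed at 0 throughout. FPKM counts fragments relative to gene length and library size, so levels can be compared between genes. The libraries held about 14657800 to 17932300 fragments over genes, and 21814 to 23236 genes had a value above 0. All 10 epithelial markers, among them Epcam, Cdh1 and Vil1, reached FPKM 1. HFD+DSS replicate 3 stood apart in a summed smooth muscle level (9 of 9 markers reached FPKM 1) of 3090 FPKM, against 667 to 1842 in the other 11 libraries. These are whole-tissue samples, in which fewer cells of a type and less RNA per cell cannot be told apart.

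The initiating GalNAc-transferases were represented at FPKM 1 by 11 of 17 genes. Galnt12 had the highest mean over the 12 libraries (60.7 FPKM, range 38.1 to 86.6), followed by Galnt4 (56.2, range 40.0 to 72.4) and Galnt7 (47.8, range 21.1 to 66.2), and the ranges of these 3 overlapped. Galnt4 spanned 1.81-fold over all libraries. Galnt2, Galnt9, Galnt13, Galnt14, Galnt16 and Galnt17 never reached FPKM 1. Galnt2 was listed at 0.0132 to 0.112 FPKM, with 43 fragments over all libraries. It shares 90.0% of its exonic bases with the same-strand transcript Gm20388, which was listed at 0, so its level is uncertain.

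Both core 1 genes were abundant. C1galt1, the galactosyltransferase that makes core 1, averaged 59.1 FPKM (range 21.9 to 78.3), and C1galt1c1, the chaperone it needs to fold, averaged 49.7 (range 18.4 to 66.7). The lowest value of each came from HFD+DSS replicate 3. Among branching enzymes, Gcnt3, the mucin-type enzyme that makes core 2, averaged 65.2 FPKM (range 23.6 to 125), B3gnt6, the core 3 synthase, 15.6 (range 2.82 to 31.7) and the core 2 enzyme Gcnt1 8.93 (range 3.58 to 15.9). Gcnt7 never reached FPKM 1.

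Among the genes for GlcNAc extension, B3gnt3, whose enzyme extends core 1, had the highest mean, at 98.5 FPKM (range 69.2 to 136), although B3gnt7 (87.8) was level with it (87.0) in CD replicate 2. B3gnt7, which extends sulfated keratan-type chains, averaged 36.4 with a 46.8-fold range from 1.88 to 87.8, and B3gnt5, the lactotriaosylceramide synthase of glycolipids, averaged 12.5 (range 2.81 to 32.7). B3gnt4 shares 93.2% of its exonic bases with Diablo on the opposite strand, and at these depths a gene of its length with 3 fragments would read 0.110 to 0.156 FPKM. B4galnt2, which adds the terminal GalNAc of the Sda antigen, was the most abundant member at a mean of 234 FPKM (range 72.6 to 346). B4galnt1, a ganglioside synthase, averaged 31.1 (range 13.5 to 45.3) and B4galnt3, which makes the terminal LacdiNAc unit, 9.18 (range 4.38 to 25.2).

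Among fucosyltransferases, Fut2, which makes the terminal α1,2-fucose of secreted mucins, led with a mean of 50.3 FPKM (range 20.9 to 122). Fut4, an α1,3-fucosyltransferase of Lewis x type antigens, averaged 17.9 (range 10.6 to 29.1) and Fut8, the core fucosyltransferase of N-glycans, 17.3 (range 12.7 to 21.8). Fut1, Fut9 and Fut10 reached FPKM 1 in 3, 2 and 1 libraries, and Fut7 in none.

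Sialyltransferases differed by family. All 6 ST3Gal genes reached FPKM 1, led by St3gal4 (mean 81.0, range 57.2 to 114), St3gal3 (22.1, range 11.0 to 45.4) and St3gal6 (13.4, range 4.60 to 29.6), which cap galactose with α2,3-linked sialic acid. St6gal1, the α2,6-sialyltransferase of N-glycans, averaged 16.3 (range 10.4 to 22.0), while St6gal2 averaged 0.0378. Of 7 ST6GalNAc rows, St6galnac6, best known for glycolipids, averaged 121 FPKM (range 81.2 to 160). St6galnac2, which sialylates O-glycans, averaged 6.42 (ENSMUSG00000057286; range 2.40 to 9.10), and its second row, which shares 22.8% of its exonic bases with the first, averaged 1.05, so the split between them is uncertain. St6galnac4 averaged 3.52 (range 1.92 to 5.51). St6galnac1, the enzyme that makes sialyl-Tn on mucins, had 6 fragments in all 12 libraries together.

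Of the 6 ST8Sia enzyme genes, which build α2,8-linked sialic acid chains, 2 reached FPKM 1. St8sia5 averaged 2.12 (range 0 to 12.2), and St8sia6 averaged 0.664 and St8sia4 0.567. Of 14 sulfotransferases, 9 reached FPKM 1, led by Chst4, a GlcNAc-6-O-sulfotransferase, with a mean of 22.1 (range 16.1 to 28.9). Chst12, a chondroitin 4-O-sulfotransferase, averaged 6.21 (range 3.58 to 14.4) and Chst15, which makes disulfated chondroitin, 3.95 (range 2.81 to 4.89). Chst5, Chst8, Chst9, Chst10 and Chst13 never reached FPKM 1.

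**Figure D1:**
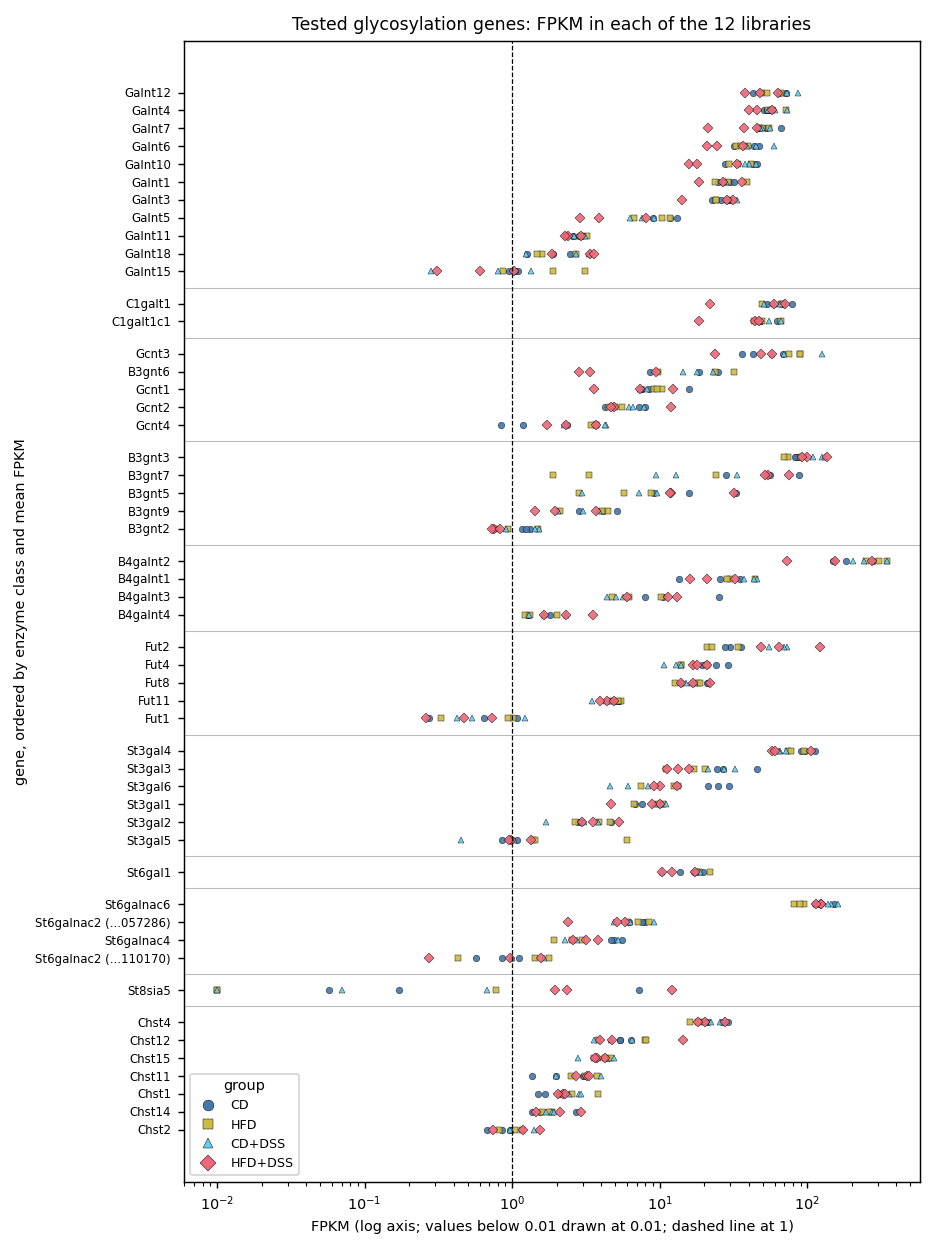
FPKM of the 51 tested glycosylation genes in each of the 12 libraries on a log axis, coloured by group and arranged by enzyme class. Most abundant members keep within a few-fold over all libraries, whereas B3gnt7 runs from 1.88 to 87.8 and St8sia5 from 0 to 12.2.

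For the comparisons, 51 members at FPKM 1 or more in at least 3 libraries were tested with limma on log2(FPKM + 1) among 14179 genes. A gene is said to rise or fall where its Benjamini-Hochberg adjusted p over all of those genes was under 0.05. Differences are given on that log2 scale, on which low genes appear to change less than they do, with their standard error (SE), and group values are mean FPKM ± SD, n = 3.

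With DSS averaged over both diets, 1 of 51 members rose and 1 fell, against 1.87% of all 14179 tested genes that rose and 0.875% that fell. Fut2 (ENSMUSG00000055978, mm10 chromosome 7, 45648591 to 45666394) was at 30.0, 27.6 and 35.6 FPKM in the CD libraries and 20.9, 22.5 and 34.0 in the HFD libraries. With DSS it was at 55.4, 72.5 and 69.3 FPKM under CD and 122, 64.6 and 48.3 under HFD. Every DSS library lay above every library without DSS, and HFD+DSS replicate 1 was the highest. Fut2 rose by 1.27 ± 0.21 (limma adjusted p = 0.0137), with between 1806 and 10137 fragments behind each value. Its mean went from 31.1 ± 4.12 to 65.7 ± 9.09 under CD and from 25.8 ± 7.17 to 78.4 ± 38.9 under HFD. Within a diet the difference was 1.06 ± 0.30 under CD (limma adjusted p = 0.170) and 1.49 ± 0.30 under HFD (adjusted p = 0.0769), and neither passed the threshold. The difference between these, 0.43 ± 0.43 (limma adjusted p = 1.000), did not pass either.

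St3gal6 (ENSMUSG00000022747, mm10 chromosome 16, 58468125 to 58524243) stood at 24.8, 29.6 and 21.2 FPKM in the CD libraries and 8.26, 4.60 and 6.06 in CD+DSS. Under HFD it stood at 7.45, 13.3 and 12.5 FPKM without DSS and 13.1, 10.1 and 9.11 with it. The 3 CD libraries were all higher than the other 9, whose values ran from 4.60 to 13.3. Under CD it fell by 1.86 ± 0.25 (limma adjusted p = 0.0328), from 25.2 ± 4.18 to 6.31 ± 1.84. Under HFD, where it was at 11.1 ± 3.19 without DSS and 10.8 ± 2.11 with it, the difference was -0.02 ± 0.25 (adjusted p = 0.980). Averaged over both diets it fell by 0.94 ± 0.17 (limma adjusted p = 0.0204). That value mixes the estimates of -1.86 under CD and -0.02 under HFD, which were not shown to differ. On the opposite strand, Dcbld2 covers 26.0% of the exonic bases of St3gal6 at a mean of 2.17 FPKM. Between 383 and 2870 fragments stood behind each value of St3gal6.

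The call for St3gal6 under CD was lost, at the same direction, without CD replicate 1 (limma adjusted p = 0.122), CD replicate 2 (0.180), HFD replicate 2 (0.0508), CD+DSS replicate 2 (0.0699) or CD+DSS replicate 3 (0.136). The averaged fall was lost without CD replicate 1, CD replicate 2 or HFD replicate 2, while Fut2 stayed called whichever of the 12 libraries was left out.

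**Figure D2:**
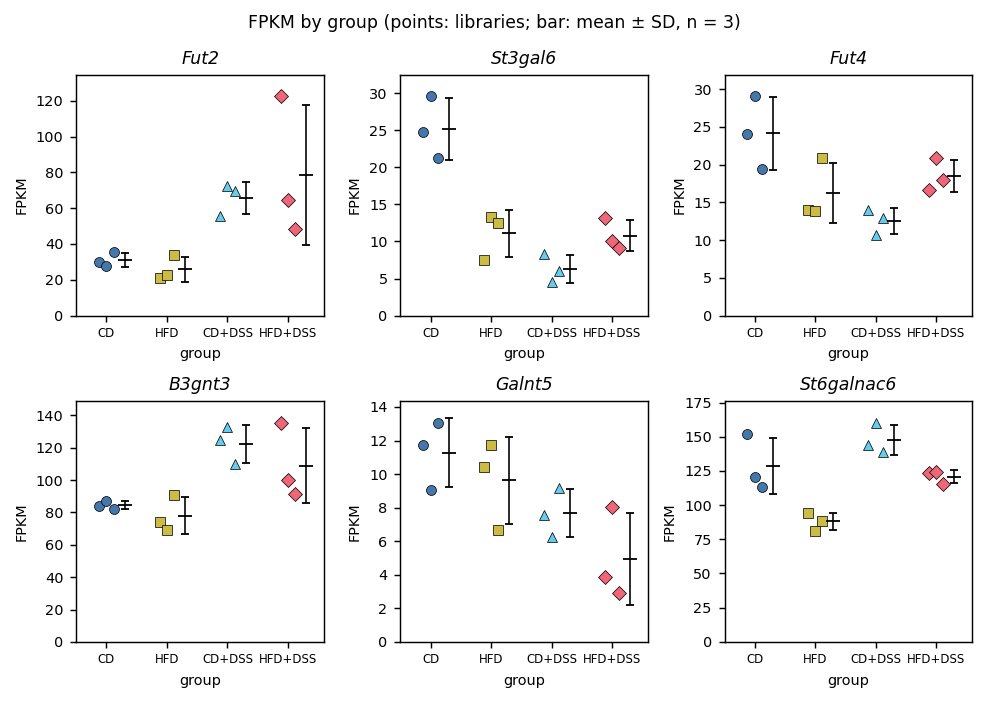
FPKM by group for members named in the DSS comparisons; each point is a library and the black bar is the group mean ± SD (n = 3), on axes that start at 0. Fut2 is higher in all 6 DSS libraries (48.3 to 122) than in the 6 others (20.9 to 35.6), and St3gal6 is high in the 3 CD libraries only.

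Against the background, the averaged DSS comparison called 2.74% of all tested genes and 2 of 51 members, and the voom test on recovered fragments called 2 members and 3.26% of genes. At an unadjusted p under 0.05 it held 10 of 51 members (19.6%) and 23.5% of all tested genes, so the members were near the background. The median log2 change of the members was -0.09 and that of all tested genes 0.0075, with 31 of 51 members below 0. Under CD alone, 1 of 51 members and 0.0846% of all tested genes were called, with 12 members (23.5%) and 15.2% of genes at an unadjusted p under 0.05. Under HFD alone, limma called 0 of 51 members and 0.339% of all tested genes, voom called 0 members, and 15 members (29.4%) against 13.6% of genes had an unadjusted p under 0.05.

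Next after the called genes in the averaged comparison came B3gnt3, Galnt5 and St6galnac6. B3gnt3 measured 84.1, 87.0 and 82.4 FPKM in CD against 125, 133 and 110 in CD+DSS; under HFD it was at 73.9, 69.2 and 90.8 without DSS against 136, 99.9 and 91.4 with DSS. The 6 DSS libraries all lay above the 6 others, by a narrow margin under HFD, at a difference of 0.50 ± 0.13 (limma adjusted p = 0.0621). Galnt5, a GalNAc-transferase of mucin-secreting epithelia, ran from 6.69 to 13.1 FPKM without DSS and from 2.89 to 9.15 with it, and the groups overlapped (-0.70 ± 0.21, limma adjusted p = 0.0899). St6galnac6 differed by 0.33 ± 0.11 (limma adjusted p = 0.118), with the HFD libraries lowest at 81.2 to 94.3.

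Under CD, the smallest p-values after St3gal6 belonged to Fut4, Fut2, Gcnt4 and B4galnt3. Fut4 stood at 24.1, 29.1 and 19.4 FPKM in CD and 14.0, 10.6 and 12.9 in CD+DSS without overlap (-0.89 ± 0.20, limma adjusted p = 0.103). Gcnt4, a core 2 enzyme of low level here, differed by 0.91 ± 0.27 (adjusted p = 0.179), from 1.45 ± 0.784 to 3.58 ± 1.18 FPKM. B4galnt3 differed by -1.22 ± 0.39 (limma adjusted p = 0.207), with CD replicate 2 alone at 25.2 FPKM. B3gnt7 and B3gnt5 differed by more, at -1.64 ± 0.72 (limma adjusted p = 0.318) and -1.36 ± 0.54 (adjusted p = 0.280), with larger errors. None of the genes after St3gal6 passed the threshold.

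Under HFD, the smallest p-values after Fut2 belonged to B3gnt7, B3gnt6, Galnt5 and St6galnac6. B3gnt7 (ENSMUSG00000079445, mm10 chromosome 1, 86302832 to 86307305) measured 3.29, 1.88 and 23.9 FPKM in HFD and 54.0, 51.6 and 74.7 in HFD+DSS, a difference of 3.16 ± 0.72 (limma adjusted p = 0.108). The groups did not overlap, but HFD replicate 3 was far above the other two. Without that library the difference was 4.10 ± 0.53 and passed (limma adjusted p = 0.0269). The library left out also had the highest posterior Hox level of the HFD libraries (3.53 against 1.23 and 1.37). That level, and the fit that includes it, are described below. B3gnt6 measured 23.5, 31.7 and 9.76 in HFD and 2.82, 9.40 and 3.38 in HFD+DSS (-1.88 ± 0.49, limma adjusted p = 0.149). Galnt5 differed by -0.90 ± 0.30 (adjusted p = 0.234) and St6galnac6 by 0.45 ± 0.16 (adjusted p = 0.247).

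By class, the GalNAc-transferases mostly had lower values with DSS under HFD. Of 11 tested genes, 10 had a negative difference, with a median of -0.36; 0 were called and 4 had an unadjusted p under 0.05. Over all tested genes in this comparison, 50.9% had a positive difference and 13.6% an unadjusted p under 0.05. Without HFD+DSS replicate 3, the library with the high muscle level, 8 of 11 were negative with a median of -0.24. Under CD, 4 of 11 were negative and the median was 0.12, where 51.5% of all tested genes were positive. Both core 1 genes were negative under HFD with a median of -0.51, which became -0.05 with 1 of 2 negative once that library was left out. The ST3Gal genes were negative in 5 of 6 under each diet, with medians of -0.22 under CD and -0.20 under HFD. With DSS averaged over diets, 0 of the 7 tested sulfotransferases were called and 0 had an unadjusted p under 0.05, against 23.5% of all tested genes, and their median was 0.09.

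**Figure D3:**
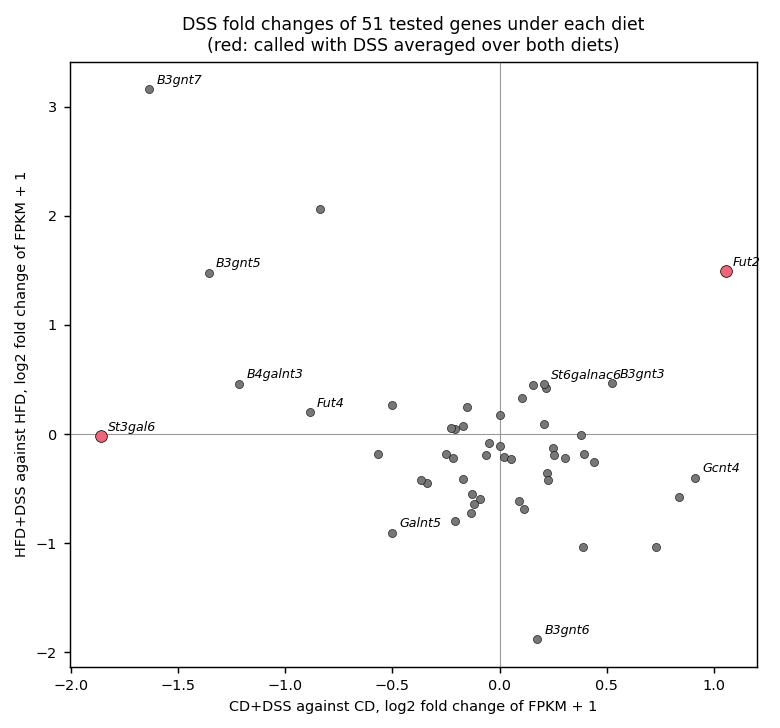
The log2 difference with DSS under CD (horizontal) against that under HFD (vertical) for the 51 tested genes, with the 2 genes called over both diets in red. Fut2 lies above 1 on both axes, and St3gal6 lies at -1.86 under CD and -0.02 under HFD.

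Marker levels of several cell types differed between the groups, while those of goblet cells and surface colonocytes overlapped between all of them. The summed level of the 10 epithelial markers, all detected, was 5663 to 6332 FPKM in CD and 4742 to 7392 under HFD. It was 6800 to 10689 under CD+DSS and 6770 to 6966 under HFD+DSS. Every DSS library of either diet thus lay above every CD library, and the HFD libraries overlapped both DSS groups. With the mean log2 level of these markers as a covariate, Fut2 differed by 1.04 ± 0.31 (limma adjusted p = 0.289) and St3gal6 by -0.79 ± 0.26 (adjusted p = 0.335) over both diets, and St3gal6 by -1.65 ± 0.37 under CD (adjusted p = 0.505). The epithelial level itself differed between groups, so a fit that holds both cannot fully separate them. The sum over 7 neutrophil markers, of which 5 reached FPKM 1 and 0 were at 0 in every library, was 23.6 to 166 in CD, 3.20 to 59.8 under HFD, 38.6 to 107 under CD+DSS and 98.7 to 562 under HFD+DSS. It was higher in every HFD+DSS than in every HFD library and overlapped between CD and CD+DSS. The 8 B and plasma cell markers all reached FPKM 1. They summed to 189 to 617 FPKM in the 6 DSS libraries and to 673 to 1158 in the 6 others. There was no overlap, as for Fut2 and B3gnt3, which were higher with DSS. The 9 T and NK cell markers, all at FPKM 1 or more in at least 1 library, summed to 21.4 to 52.6 in CD, 64.6 to 87.4 under HFD, 57.6 to 124 under CD+DSS and 23.2 to 47.8 under HFD+DSS, so CD lay below HFD and CD+DSS but overlapped HFD+DSS. The 10 enteric neuron and glia markers were likewise all detected. They summed to 26.6 to 28.6 in CD and to 29.5 to 136 in the other 9 libraries, with the 136 in HFD+DSS replicate 3. This sum was thus lowest in CD by a narrow margin, whereas St3gal6 was highest in CD. All 11 goblet cell markers reached FPKM 1. Their sum was 4928 to 10840 FPKM in CD and 3374 to 5326 under HFD. With DSS it was 4158 to 6357 under CD and 3276 to 6805 under HFD. All 8 surface colonocyte markers also reached FPKM 1, with a sum of 4150 to 6803 in CD and 5489 to 17898 under HFD. With DSS that sum was 6193 to 15197 under CD and 4580 to 9090 under HFD. The part of the neutrophil, lymphocyte, neuron, glia, goblet cell and colonocyte markers in these results was not tested.

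Diet gave no call without DSS. In HFD against CD, limma and voom each called 0 of 51 members, and limma called 0% of all tested genes. At an unadjusted p under 0.05 there were 12 members (23.5%) and 4.15% of genes. St3gal6 had the smallest p, at -1.14 ± 0.25 (limma adjusted p = 0.711), with the CD and HFD libraries apart as given above. B3gnt7 differed by -2.97 ± 0.72 (limma adjusted p = 0.759), from 56.1, 87.8 and 28.0 FPKM in CD to 3.29, 1.88 and 23.9 in HFD. These groups were separated only by the gap between 28.0 and 23.9. St6galnac4, which adds sialic acid to sialylated core 1, stood at 5.51, 4.88 and 4.66 in CD and 2.54, 1.92 and 2.99 in HFD (-0.80 ± 0.23). St3gal3 stood at 45.4, 24.5 and 26.7 in CD and 17.1, 20.1 and 11.0 in HFD (-0.95 ± 0.27), and Gcnt4 at 1.18, 0.838 and 2.33 in CD and 3.69, 3.68 and 3.40 in HFD (0.95 ± 0.27). Each of these 3 was without overlap and had a limma adjusted p of 0.798.

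With DSS given to both, HFD+DSS against CD+DSS also had 0 of 51 members called by limma and by voom, with 0% of all tested genes called by limma. At an unadjusted p under 0.05 there were 14 members (27.5%) and 6.62% of genes. B3gnt6 was at 14.5, 22.8 and 17.8 FPKM in CD+DSS against 2.82, 9.40 and 3.38 in HFD+DSS, without overlap (-1.77 ± 0.49, limma adjusted p = 0.700). St3gal3 was at 32.1, 21.2 and 27.2 with CD+DSS against 13.3, 15.8 and 11.1 with HFD+DSS (-0.94 ± 0.27, limma adjusted p = 0.700). Its HFD libraries thus lay below the matching CD libraries with and without DSS, and neither comparison passed the threshold. Unlike for DSS, a diet difference averaged over libraries with and without DSS was not tested.

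Galnt6 and Galnt10, which initiate O-glycans, measured 39.0, 59.7 and 44.6 and 40.5, 44.8 and 37.6 FPKM in CD+DSS, and 21.0, 36.7 and 24.3 and 15.7, 33.4 and 18.0 in HFD+DSS. The groups of both genes were apart, at -0.80 ± 0.23 (limma adjusted p = 0.702) and -0.92 ± 0.27 (adjusted p = 0.703). Of the 11 GalNAc-transferases, 10 were lower in HFD+DSS than in CD+DSS with a median of -0.39, and 9 with a median of -0.26 without HFD+DSS replicate 3. Of all tested genes, 45.4% had a positive difference in this comparison. St3gal6 differed the other way, by 0.70 ± 0.25 (limma adjusted p = 0.732).

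The interaction, the DSS difference under HFD minus that under CD, called 0 of 51 members with limma and with voom and 0% of all tested genes with limma. There were 14 members (27.5%) and 5.42% of genes at an unadjusted p under 0.05. St3gal6 had the smallest p among members, at 1.84 ± 0.35 (limma adjusted p = 0.407), followed by B3gnt7 at 4.79 ± 1.02, Fut4 at 1.09 ± 0.28 and B3gnt5 at 2.84 ± 0.76 (each with a limma adjusted p of 0.560). Gcnt4 differed by -1.31 ± 0.38 (limma adjusted p = 0.693). The unlike DSS differences of St3gal6 under the 2 diets were thus not shown to differ.

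Among members, B3gnt7 had levels that moved with the mean level of Hoxa13, Hoxb13 and Hoxd13. These are posterior Hox genes that are expressed toward the anal end of the gut. The mean log2(FPKM + 1) of these 3 genes was 3.63, 5.11 and 3.13 in the CD libraries, 1.23, 1.37 and 3.53 under HFD, 3.26, 0.47 and 1.21 under CD+DSS and 3.80, 3.74 and 4.57 under HFD+DSS. CD and HFD+DSS libraries were thus mostly high, and HFD and CD+DSS libraries mostly low. B3gnt7, in the same order, was at 56.1, 87.8 and 28.0 FPKM, then 3.29, 1.88 and 23.9, then 33.1, 9.38 and 12.8, then 54.0, 51.6 and 74.7. Hoxa13 alone did not follow B3gnt7 in every group. In HFD it was at 6.30, 16.3 and 7.26 FPKM, highest where B3gnt7 was lowest. In HFD+DSS it was at 13.7, 9.25 and 8.29, lowest where B3gnt7 was highest. In CD+DSS, at 16.8, 1.59 and 10.0, it had the order of B3gnt7, and in CD both were lowest in replicate 3. The single high HFD library and the single high CD+DSS library in the Hox level were also the highest of their groups in B3gnt7.

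A slope on this Hox level was therefore fitted beside the 4 group means, a choice made after the values had been seen, so that it uses only differences between libraries of 1 group. B3gnt7 had a slope of 0.85 ± 0.12 per log2 unit of Hox level (limma adjusted p = 0.0567), just outside the threshold. With limma 0 of 51 members and 0.0423% of all tested genes were called, and 11 members (21.6%) and 3.67% of genes had an unadjusted p under 0.05. Voom called B3gnt7 alone among members and 0.0635% of genes. B3gnt6 had a slope of -0.45 ± 0.14 (limma adjusted p = 0.926), Fut4 of 0.18 ± 0.06 (0.985), St6galnac4 of 0.20 ± 0.07 and Gcnt4 of -0.24 ± 0.08 (1.000 each). Of the 11 tested GalNAc-transferases, 9 had a negative slope, with a median of -0.07, where 52.7% of all tested genes had a positive one. Every HFD+DSS library lay above every HFD and every CD+DSS library in the Hox level. The part of the Hox level in the lower values of this class in HFD+DSS was not tested.

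The Hox level itself differed between the groups, so a fit that holds both cannot fully separate them. With the Hox level in the fit, the group differences of B3gnt7 were smaller. HFD+DSS against HFD was 1.46 ± 0.39 (limma adjusted p = 0.414) in place of 3.16, HFD against CD was -1.34 ± 0.39 in place of -2.97, and the interaction was 1.14 ± 0.68 in place of 4.79. The interaction of B3gnt5 was 0.83 ± 0.91 in place of 2.84, and that of Fut4 was 0.31 ± 0.33 in place of 1.09. Fut2 had a slope of -0.04 ± 0.12, and its DSS difference over both diets was 1.27 ± 0.22 with the Hox level in the fit (limma adjusted p = 0.0216). St3gal6 fell by 0.91 ± 0.15 over both diets in that fit (limma adjusted p = 0.0175). Its difference under CD was -1.44 ± 0.28 and no longer passed (adjusted p = 0.594).

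**Figure D4:**
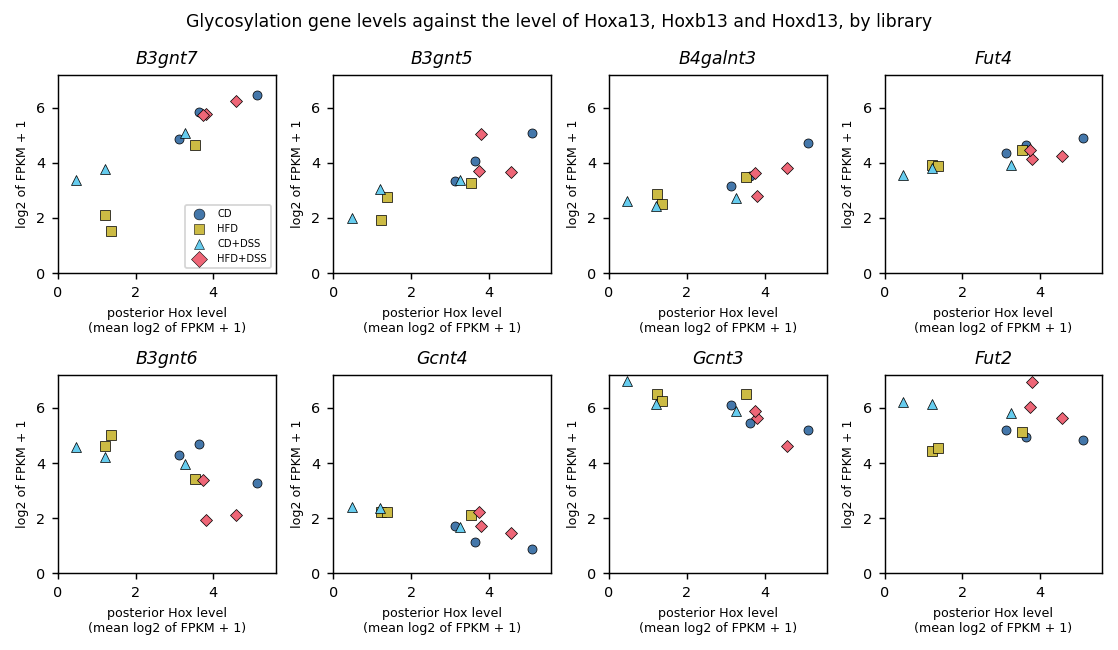
Log2(FPKM + 1) of glycosylation genes (vertical) against the mean log2(FPKM + 1) of Hoxa13, Hoxb13 and Hoxd13 (horizontal), with 1 point per library coloured by group. B3gnt7 is higher where the Hox level is higher (slope 0.85 ± 0.12 within groups), whereas Fut2 has no such slope (-0.04 ± 0.12).

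Genes that feed these enzymes, cleave or carry their products were read from lists. The lists covered sialic acid supply, sialidases, fucose supply, sulfate supply, UDP-sugar supply, galactosyltransferases, other terminal enzymes, and mucins together with mucus proteins. Of 74 entries, 71 matched and 58 were tested, and limma called 0 of them in any of the 6 contrasts. With DSS averaged over diets, 19 of the 58 had an unadjusted p under 0.05, 9 higher and 10 lower, against 23.5% of all tested genes (13% higher and 10.5% lower). The smallest p there belonged to Gmds, which makes the GDP-fucose precursor used by Fut2 and the other fucosyltransferases. It was at 83.7, 69.0 and 83.7 FPKM in CD against 105, 130 and 113 in CD+DSS; under HFD it was at 67.4, 63.1 and 78.9 without DSS against 96.2, 99.0 and 81.9 with DSS. The DSS libraries were higher except that HFD+DSS replicate 3 lay below 2 CD libraries (0.47 ± 0.11, limma adjusted p = 0.0518). Of the 6 tested fucose supply genes, 4 had a positive and 2 a negative difference over both diets. Over all tested genes, 50.9% were positive. Fpgt, of the same list, differed by -0.60 ± 0.17 (limma adjusted p = 0.0789), and Tsta3 by -0.08 ± 0.13.

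Siae, a sialic acid esterase, differed by -0.43 ± 0.11 with DSS over both diets (limma adjusted p = 0.0608). Slc35c1, the Golgi GDP-fucose transporter, differed by 0.51 ± 0.16 under CD (adjusted p = 0.194), where Gmds differed by 0.55 ± 0.16 (adjusted p = 0.179). Under HFD, A4gnt, which caps gland mucins with α1,4-GlcNAc, differed by -1.81 ± 0.44 (limma adjusted p = 0.120) and Cmah, which makes N-glycolylneuraminic acid, by -1.22 ± 0.34 (adjusted p = 0.169). Nans, the sialic acid synthase, differed by -0.69 ± 0.20 in HFD against CD (limma adjusted p = 0.798), and Slc35a2, the UDP-galactose transporter, by -0.54 ± 0.17 (adjusted p = 0.860).

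Muc2, the main gel-forming mucin of the colon and a substrate of these enzymes, was at 870, 1268 and 671 FPKM in CD+DSS against 401, 304 and 365 in HFD+DSS. The groups were apart, at -1.35 ± 0.31, without passing the threshold (limma adjusted p = 0.700). The membrane mucin gene Muc4 differed by -1.11 ± 0.32 there (adjusted p = 0.700). Other genes of the list of mucins and mucus proteins went the other way, among them Muc1 at 1.14 ± 0.49 (limma adjusted p = 0.749). Of the 9 tested genes of that list, 6 had a positive and 3 a negative difference in this comparison, with a median of 0.11. The positive ones were the mucin genes Muc1, Muc13 and Muc3 and the mucus protein genes Zg16, Fcgbp and Clca1. The negative ones were the mucin genes Muc2, Muc4 and Muc3a. Over all tested genes, 45.4% were positive. For the interaction, the 2 smallest p-values in the lists were those of Cmah (-1.35 ± 0.48) and the sialidase Neu3 (1.16 ± 0.41), and neither passed.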

How the data were processed

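The deposited data are FPKM, which the authors obtained by scaling each gene's fragments to its length and a library size, with a column for each of the 12 libraries and Ensembl gene identifiers. Per the labels' protocols, total RNA went into SMARTER mRNA libraries; the build was mm10, per the submitters' processing notes. The aligner, counter and strand setting are not given in the sources consulted. Symbols, coordinates and exon lengths came from GENCODE M21, an mm10 annotation. The deposited FPKM had a median ratio of 1.009 in every library, so a scaling to equal median ratios was already in them.

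From these values, log2(FPKM + 1) was fitted with limma 3.58.1 under R 4.3.3 (lmFit, then contrasts.fit and trended eBayes), with a mean per group over all 12 samples and no covariate. The 14179 genes that reached FPKM 1 in 3 or more samples were tested, with Benjamini-Hochberg adjustment over all of them and a threshold of 0.05. The fit was tested on simulated data. Whole fragments were recovered from FPKM and exon length: 97.3% of the 903 member values above 0 were within 0.1 of a whole number. The limma-voom test on those fragments, the slope on the Hox level and the class counts without each library were added after the data had been seen. Replicate pairs differed by far more than counting noise.

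Members and lists were chosen with earlier results of these data known, and so were the promoters shown and the motifs searched. The members named were those called, the 3 most abundant of each enzyme class and the 5 with the smallest p in each contrast, and in the pathway lists the 2 with the smallest p. Fpgt, Tsta3 and Muc1 were added from the lists because they differed in the other direction. Alternatives varied the pseudocount, filter, scaling, samples, block and covariates, and left out each library.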

Additional observations from a re-analysis of the deposited data

How the results depend on the processing

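Counts of members called depended on the setting in the DSS comparisons and not in the diet comparisons or the interaction, where 0 members were called by limma under every alternative run. For CD+DSS against CD, the 1 member called (St3gal6) became 0 without a filter on low values (adjusted p = 0.0730), with only the compared groups in the fit (0.0724), with a replicate block (0.0928), and with the posterior Hox or the epithelial level as a covariate, and ranged from 0 to 1 when each library was left out. For HFD+DSS against HFD, the count of 0 became 1 when FPKM was rescaled to an equal sum in every library (Fut2, 1.45, adjusted p = 0.0455) and ranged from 0 to 1 over the libraries left out. For DSS averaged over both diets, the 2 members called became 1 without the filter and with a replicate block (Fut2 kept in each) and 0 with the epithelial covariate. The range over libraries left out was 1 to 3, with Galnt5 added at -0.88 (adjusted p = 0.0295) without HFD+DSS replicate 2. For the slope on the Hox level, the count of 0 became 1 (B3gnt7) with rescaling, with the epithelial covariate and with voom, and ranged from 0 to 1. The cause of these differences was not tested.

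The difference of St3gal6 with DSS under HFD, -0.02, turned to 0.062 with the epithelial covariate and ranged from -0.26 to 0.12 over the libraries left out, above 0 without HFD replicate 2, HFD replicate 3, HFD+DSS replicate 2 or HFD+DSS replicate 3. Of 732 alternative values for 36 pairs of gene and contrast, 703 kept their direction and side of the threshold. Most of these pairs were not called in the main fit, so for them this means staying uncalled. Only called pairs could lose a call, so the share over all pairs does not measure how firm the calls are. Of the other values, 17 lost a call, 7 gained a call and 5 changed direction. The number of rows reaching the threshold in any library was 67 at FPKM 0.5 and 49 at FPKM 2, in place of 56 at FPKM 1. Replicate numbers did not pair the samples: deviations of same-numbered libraries correlated between -0.46 and 0.20, and 1 of 12 libraries correlated best with its own number. The 3 samples in each group limit what could be called, and values of a few fragments, as for Galnt2, cannot show a difference.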

Other observations

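St8sia5 and Fut9 each stood out in single libraries, and both were picked for this paragraph after their values had been seen. St8sia5, a sialyltransferase of complex gangliosides, was at 0.0572, 7.25 and 0.172 FPKM in CD against 0.672, 0.0707 and 0 in CD+DSS; under HFD it was at 0, 0 and 0.777 without DSS against 12.2, 2.33 and 1.95 with DSS. CD replicate 2 and HFD+DSS replicate 1 were far above all other libraries. Fut9, which makes the Lewis x epitope, did not enter the tests. It was at 1.02, 3.61 and 0.555 FPKM in CD and 0.123, 0.324 and 0.962 in HFD, and between 0.00536 and 0.292 in the 6 DSS libraries, so each CD library exceeded every DSS library. For both genes, the highest CD and HFD libraries were also the highest of their groups in the posterior Hox level (5.11 and 3.53). With DSS this held for St8sia5 alone under CD and for Fut9 alone under HFD. The part of the Hox level in Fut9 was not tested.

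Gcnt3, the mucin-type core 2 enzyme, had a DSS difference of 0.73 ± 0.36 under CD (limma adjusted p = 0.364) and of -1.03 ± 0.36 under HFD (adjusted p = 0.262). The difference between them was -1.77 ± 0.52 and did not pass (limma adjusted p = 0.704). It was at 43.1, 36.0 and 68.0 FPKM in CD against 57.6, 125 and 69.0 in CD+DSS; under HFD it was at 89.8, 74.6 and 88.8 without DSS against 48.7, 57.7 and 23.6 with DSS. St3gal5, the GM3 synthase, was at 5.95 FPKM in HFD replicate 3 and between 0.453 and 1.43 in the other 11 libraries.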
